A study of Mus musculus with 18 samples.

Results

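The Polycomb repressive complex 2 (PRC2) genes described here are Ezh1, Ezh2, Eed, Suz12, Rbbp7, Mtf2, Phf19, Phf1, Jarid2 and Aebp2, which were taken by symbol from the RNA-seq expression table and make up 10 of its 20703 genes. The libraries came from E14 mouse embryonic stem cells (mESCs), a line derived from the blastocyst, that were WT for Nsd1, an H3K36 methyltransferase gene, or carried a homozygous deletion of its exon 5 (Nsd1-KO) in the clonal lines KO-1 and KO-2. Per the labels the cells were grown with leukemia inhibitory factor (LIF) on feeders of inactivated mouse embryonic fibroblasts (MEFs). The methods of the study name feeders or gelatin-coated plates, and its legend for these RNA-seq samples names the removal of both LIF and MEFs. RNA was taken at day 0, 2 and 4 after LIF and MEFs were removed to start differentiation in monolayer. Each line had 2 biological replicates at each day, which gave 2 WT and 4 KO libraries per day and 18 in all, with between 9309874 and 23921193 counts on genes and the lowest totals, 9309874 and 9356867, in WT at day 2. The deletion was made in cells whose Nsd1 alleles already carried an in-frame 3×Flag tag, and whether the WT cells of the RNA-seq carried the tag too was not given in the sources used here. Each KO line is the progeny of 1 cell, so a difference from WT is seen in 2 clones only. The study describes the replicates as independent biological ones without saying whether these were separate cultures, and p-values measure only the spread between these samples.

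Nsd1, the deleted gene, was given by the labels as WT or KO, and its level followed them in all 18 libraries. Its normalized read count, the count of a library divided by its size factor, was 3374 and 3660.0 in WT, 837 and 711 in KO-1 and 689 and 635 in KO-2 at day 0. The lowest WT library at any day had 2111 and the highest KO library 1103, so the groups did not overlap. Reads on Nsd1 remained in KO, and which exons or cells they came from was not tested. Among markers of ES cells, Pou5f1, Nanog, Sox2, Zfp42, Klf4, Esrrb, Tdgf1 and Utf1 were all expressed at day 0, with group means of at least 4133, and their summed normalized count was 80465 and 81982 in WT, 79334 and 82719 in KO-1 and 80370.3 and 80365 in KO-2.

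PRC2 deposits methylation on lysine 27 of histone H3, with trimethylation (H3K27me3) as the mark of silenced developmental genes. Either Ezh1 or Ezh2 supplies the methyltransferase activity, which needs Eed and Suz12, and Rbbp7 or its paralog Rbbp4 binds histones within the core. The complex exists in alternative forms, one that carries a Polycomb-like protein (Mtf2, Phf19 or Phf1) and one that carries Jarid2 and Aebp2, and these accessory subunits help bring it to CpG islands in ES cells, where it holds lineage genes silent but ready for induction.

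The sequences upstream of 4 of these genes are shown first, those of Phf19 and Rbbp7 because they were the genes called between WT and KO, and those of Suz12 and Ezh2 because, like Phf19, they hold a motif of the E2F factors, which drive genes of S phase. Sequences are from RefSeq on GRCm38.p6, an older build than the mm39 of the authors' alignment, and run 5′ to 3′ on the strand of the gene. That of Phf19 is chr2:34914027-34914226 on the minus strand, that of Rbbp7 chrX:162760122-162760371 on the plus strand and that of Suz12 chr11:79992856-79993105 on the plus strand. All 3 lie upstream of the start site. That of Ezh2, chr6:47595009-47595038 on the minus strand, spans the start site. Capitals mark a match to TTTCCCGC, TTTCGCGC, TTTGCCGC or TTTGGCGC, searched on both strands.
Phf19: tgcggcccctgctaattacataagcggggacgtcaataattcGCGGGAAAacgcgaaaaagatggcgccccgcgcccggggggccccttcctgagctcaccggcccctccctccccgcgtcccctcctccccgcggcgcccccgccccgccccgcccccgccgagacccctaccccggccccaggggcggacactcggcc
Suz12: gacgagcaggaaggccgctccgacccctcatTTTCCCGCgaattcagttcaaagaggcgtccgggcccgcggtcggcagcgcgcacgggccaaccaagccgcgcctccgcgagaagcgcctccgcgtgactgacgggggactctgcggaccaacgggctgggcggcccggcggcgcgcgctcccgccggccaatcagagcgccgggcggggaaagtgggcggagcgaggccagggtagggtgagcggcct
Ezh2: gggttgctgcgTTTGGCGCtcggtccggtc
Rbbp7: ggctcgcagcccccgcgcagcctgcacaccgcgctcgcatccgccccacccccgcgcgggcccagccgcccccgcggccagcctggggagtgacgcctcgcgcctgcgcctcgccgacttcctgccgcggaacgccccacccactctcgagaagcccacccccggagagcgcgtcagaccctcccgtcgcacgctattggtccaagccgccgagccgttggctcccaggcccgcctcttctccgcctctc
In Phf19 the match, GCGGGAAA, lies on the opposite strand with its first base at position -208 from the start site, in Suz12 TTTCCCGC is at position -219, and in Ezh2 TTTGGCGC begins at base 4 of the transcript, counted from 1 at the start site. Positions are from the RefSeq start sites, which for Phf19, Suz12 and Ezh2 are also the start of a GENCODE M21 transcript. Other GENCODE transcripts begin up to 50 bases further upstream for Phf19 and 28 for Ezh2, and for Rbbp7 the nearest begins 30 bases downstream of the RefSeq site. All 10 genes matched the RefSeq promoter table, with 14 windows of 300 bases, from 250 before to 50 after a start site, and 3 of the 14 held one of the 4 motifs. By comparison, 744 of all 32851 windows did (2.26%). The letters are a description of the sequence and no binding was measured here. No match was found in the window of Rbbp7.

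Next, the KO lines were compared with WT at each day, to see whether the transcripts of the complex that deposits H3K27me3 differ when an H3K36 methyltransferase is missing. The test was limma on the deposited values, which are counts after a variance stabilizing transformation (VST) on a log2 scale, with Benjamini-Hochberg adjustment over all genes, and the rule for a call took both an adjusted p below 0.01 and a log2 fold change beyond 0.58 in either direction. By this rule Phf19 and Rbbp7 were higher in KO than in WT at day 4 (2 of 10, against 3.67% of all genes called higher). No gene of the complex was called at day 0 (0 of 10, against 2.61% called in either direction) or at day 2 (0 of 10, against 6.38%). In bulk samples such as these, fewer cells of a type and less RNA per cell cannot be told apart.

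Smaller differences were more frequent. With the fold threshold dropped and the adjusted p kept under 0.01, limma separated 2 genes at day 0 (Eed and Phf19), 5 at day 2 (Ezh2, Suz12, Jarid2, Mtf2 and Phf19) and 5 at day 4 (Ezh2, Eed, Jarid2, Phf19 and Rbbp7), all of them higher in KO. Of all genes, 10.4%, 16.6% and 13.6% were higher in KO by this rule at day 0, 2 and 4. At day 0, 2 and 4 the 10 genes had a median log2 fold change of -0.02, 0.21 and 0.22, beside medians of -0.0032, -0.016 and 0 over all 20703 genes. The VST scale compresses differences at low counts, and all genes include many with lower counts than most of the 10. These medians are thus not of genes at like levels. The same limit applies to the shares of all genes that pass the fold threshold on this scale. On the library level, the 4 KO values exceeded the 2 WT values in 4 of the 10 genes at day 0 and in 8 at both later days. Over all genes this arrangement was found for 23.1%, 26.2% and 23.9%. The opposite arrangement, all KO below WT, was seen for 4 genes at day 0 (Ezh1, Ezh2, Mtf2 and Rbbp7), for Eed at day 2 and for 0 at day 4, against 24.3%, 31.4% and 25.9% of all genes.

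**Figure D1:**
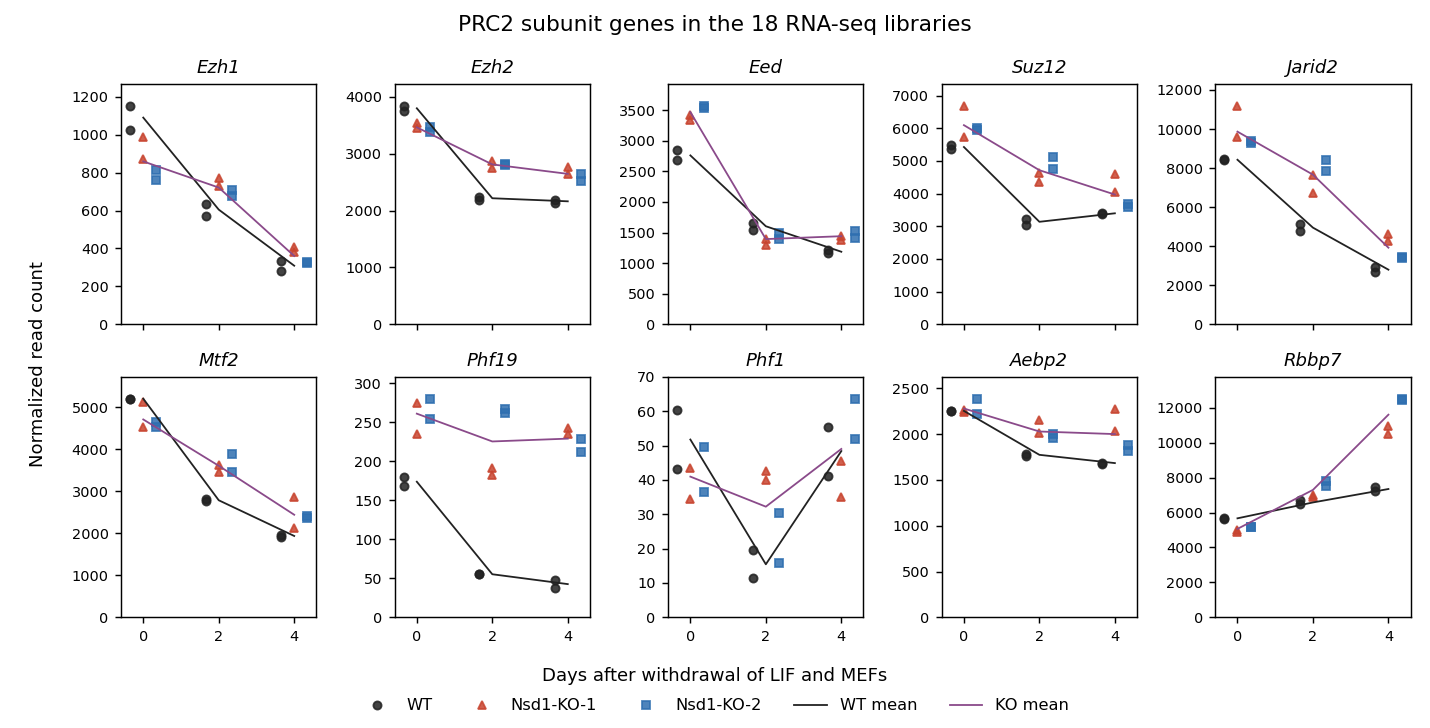
Normalized read count (linear axis from 0) of each PRC2 subunit gene against days after withdrawal of LIF and MEFs; points are single libraries of WT, Nsd1-KO-1 and Nsd1-KO-2, set side by side at each day, and lines join the means of WT (2 libraries) and KO (4 libraries). For Phf19 the WT libraries at day 4 are at 37.2 and 48.0 and the KO libraries between 212 and 242.

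**Figure D2:**
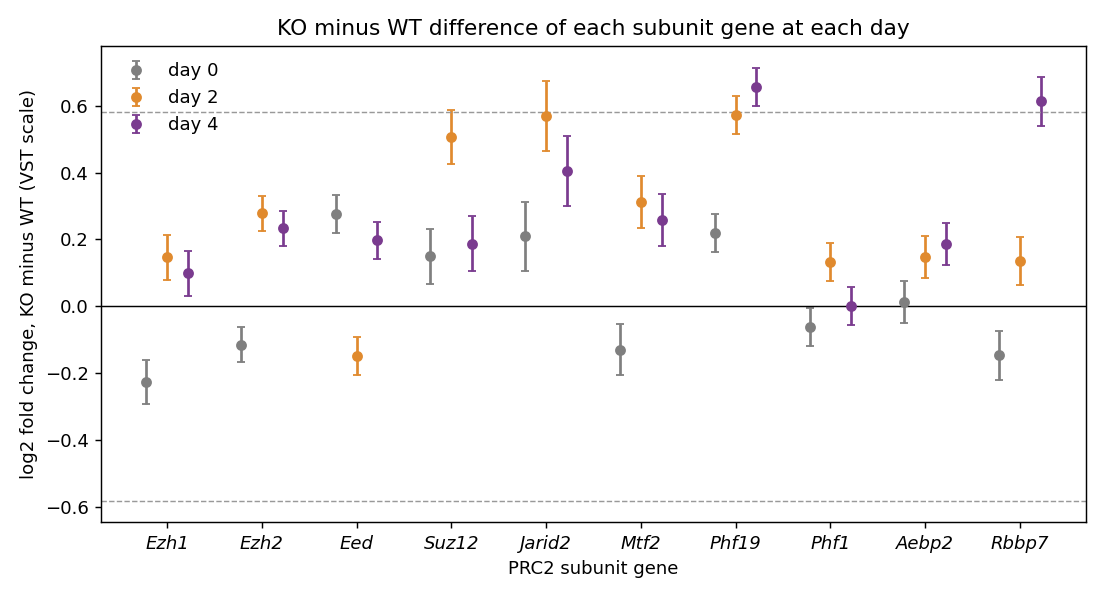
Difference of KO from WT in VST value (log2) for each gene at day 0, 2 and 4, from limma; bars are 1 SE and dashed lines mark an absolute value of 0.58. Rbbp7 at day 4 and Phf19 at day 4 lie above the upper line, and at day 2 Phf19 and Jarid2 lie just under it.

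Both catalytic subunits were lower in each KO library than in WT at day 0, without a call. Ezh2, the main methyltransferase of the complex in proliferating cells, had a normalized count of 3848 and 3751 in WT, 3541 and 3448 in KO-1 and 3477 and 3389 in KO-2 at day 0. The day 2 values were 2188 and 2245 in WT, 2744 and 2875 in KO-1 and 2827 and 2801 in KO-2. Those of day 4 were 2134 and 2191 in WT, 2767 and 2645 in KO-1 and 2526 and 2645 in KO-2. The KO libraries were thus all below WT at day 0 and all above it at day 2 and 4, with ratios of the KO to the WT mean of 0.91, 1.27 and 1.22. By limma with Benjamini-Hochberg adjustment, the VST difference was -0.11 (adjusted p = 0.105) at day 0, 0.28 (adjusted p = 1.78e-04) at day 2 and 0.23 (adjusted p = 0.00104) at day 4, below the fold threshold at each day. Ezh1, the less active paralog that prevails in resting cells, was at 1155 and 1027 in WT, 989 and 874 in KO-1 and 759 and 816 in KO-2 at day 0. At day 2 it was 574 and 637 in WT, 727 and 774 in KO-1 and 708 and 678 in KO-2. It fell to 282 and 337 in WT, 381 and 409 in KO-1 and 324 and 327 in KO-2 at day 4. Its ratios of KO to WT were 0.79, 1.19 and 1.17, the smallest adjusted p was 0.0139 (limma, day 0), and the genotypes overlapped at day 4.

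The scaffold subunits Eed and Suz12 took separate courses in KO. Eed, which binds H3K27me3 and stimulates the enzyme, was at 2844 and 2680.2 in WT, 3427 and 3348 in KO-1 and 3530.2 and 3578 in KO-2 at day 0. Its values were 1659 and 1548 in WT, 1401 and 1294 in KO-1 and 1486 and 1392 in KO-2 at day 2. They were 1209.6 and 1163 in WT, 1385 and 1446 in KO-1 and 1525 and 1406 in KO-2 at day 4. All KO libraries were above WT at day 0 and all below it at day 2, and all above it again at day 4. The VST difference was 0.28 (adjusted p = 7.26e-04), -0.15 (adjusted p = 0.0351) and 0.20 (adjusted p = 0.00758) at day 0, 2 and 4 in limma with Benjamini-Hochberg adjustment. Suz12, which holds the subunits together, was at 3042 and 3230.3 in WT, 4362 and 4631 in KO-1 and 4741 and 5127 in KO-2 at day 2, where all KO libraries lay above WT with a ratio of 1.50 (log2 fold change 0.51, SE 0.08, adjusted p = 3.55e-05, limma). Its values were 5367 and 5483 in WT, 6695 and 5724 in KO-1 and 5936 and 6018 in KO-2 at day 0. They were 3409 and 3383 in WT, 4591 and 4036 in KO-1 and 3667 and 3584 in KO-2 at day 4. Those days gave ratios of 1.12 at day 0 and 1.17 at day 4, with adjusted p of 0.182 and 0.0767.

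Rbbp7, a histone-binding WD40 protein that also sits in other chromatin complexes, was called higher in KO at day 4. Its normalized count was 5622 and 5713 in WT, 5027 and 4873 in KO-1 and 5169 and 5185 in KO-2 at day 0. At day 2 it was 6692 and 6461 in WT, 6976 and 6886 in KO-1 and 7541 and 7777 in KO-2. At day 4 it was 7446 and 7245 in WT, 10924 and 10519 in KO-1 and 12521 and 12434 in KO-2. The KO libraries were all below WT at day 0, all above it at day 2 by a ratio of 1.11, and all above it at day 4 by a ratio of 1.58 (log2 fold change 0.61, SE 0.07, adjusted p = 6.64e-07, limma). With either KO-2 library of day 4 left out the fold change was 0.577 or 0.58 and with KO-1 alone it was 0.51, with the adjusted p still under 0.01, so that the call, not the direction, depends on the KO-2 libraries.

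Among the Polycomb-like subunits, Phf19 had the largest ratio between the genotypes. This gene encodes a reader of H3K36 methylation that also binds CpG-rich DNA. Its normalized count was 179 and 168 in WT, 234 and 275 in KO-1 and 255 and 280.5 in KO-2 at day 0. By day 2 the count was 55.4 and 55.1 in WT, 191 and 182 in KO-1 and 261 and 268 in KO-2. By day 4 it was 37.2 and 48.0 in WT, 235 and 242 in KO-1 and 228 and 212 in KO-2. The groups did not overlap at any day, and the KO mean was 1.50, 4.08 and 5.38 times the WT mean at day 0, 2 and 4. The VST scale compresses such low counts, here 34 to 378 per library before normalization, and the difference on it was 0.22 (adjusted p = 0.00609) at day 0, 0.57 (adjusted p = 8.78e-08) at day 2 and 0.66 (adjusted p = 7.31e-09) at day 4 in limma. Limma-voom on the counts recovered from the VST values gave log2 fold changes of 0.59, 2.00 and 2.39. It called Phf19 at day 2 as well, beside Suz12 and Jarid2, which makes 3 genes at that day, all higher in KO, against 10.3% of all genes by that method. In this fit the median log2 fold change over all genes between KO and WT at day 2 was -0.14, against -0.016 on the VST scale. The values of Phf19, Suz12 and Jarid2 were not adjusted for it.

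Mtf2, the most abundant Polycomb-like gene in these cells, was at 5201 and 5196 in WT, 5128 and 4528 in KO-1 and 4633 and 4532 in KO-2 at day 0. At day 2 it was 2765 and 2802 in WT, 3449.8 and 3615 in KO-1 and 3466 and 3883 in KO-2. The day 4 values were 1913 and 1957 in WT, 2864 and 2127 in KO-1 and 2362 and 2403 in KO-2. All KO libraries were below WT at day 0 and above it at day 2 and day 4, with ratios of 0.91, 1.29 and 1.26 and a VST difference at day 2 of 0.31 (adjusted p = 0.00234) in limma. Phf1, the last of the Polycomb-like genes, had between 7 and 91 counts per library. Its normalized counts at day 0 were 60.4 and 43.2 in WT, 43.4 and 34.4 in KO-1 and 49.7 and 36.5 in KO-2. At day 2 they were 19.6 and 11.3 in WT, 40.0 and 42.7 in KO-1 and 30.4 and 15.8 in KO-2. At day 4 they were 41.3 and 55.6 in WT and reached 63.7 in KO. The genotypes overlapped at each day, and no difference was detectable at this depth (smallest adjusted p between the genotypes in limma 0.0636, at day 2).

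Jarid2, a DNA-binding subunit of the Jumonji family without demethylase activity, was at 8456 and 8396 in WT, 11205 and 9570.3 in KO-1 and 9284 and 9405 in KO-2 at day 0. By day 2 the values were 4759.8 and 5138 in WT, 6713 and 7625 in KO-1 and 7872 and 8439 in KO-2. By day 4 they were 2919 and 2673 in WT, 4629 and 4244 in KO-1 and 3429.9 and 3387 in KO-2. The KO values of each day exceeded those of WT, with ratios of 1.17, 1.55 and 1.40. The VST difference was 0.21 (adjusted p = 0.141), 0.57 (adjusted p = 1.44e-04) and 0.40 (adjusted p = 0.0037) in limma, just under the fold threshold at day 2. Aebp2, its zinc finger partner, had ratios of 1.01, 1.14 and 1.19 and adjusted p of 0.909, 0.061 and 0.024 (limma). Its day 4 values were 1691 and 1678 in WT, 2274 and 2034 in KO-1 and 1819.9 and 1877 in KO-2, without overlap. The direction of Aebp2 at day 0 turned after quantile normalization of the libraries.

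The time course within each genotype was tested in the same fit. In WT, most genes of the complex fell as the cells left the ES cell state. From day 0 to day 2, Ezh2, Eed, Suz12, Jarid2 and Mtf2 fell (5 of 10, against 4.02% of all genes), with log2 fold changes between -0.62 and -0.78. The call of Eed in that step was lost without WT replicate 1 of day 0 (-0.58) or replicate 2 of day 2 (-0.58), and quantile normalization ended the calls of Eed (-0.54) and Ezh2 (-0.575). From day 2 to day 4 Jarid2 alone was called, again lower (1 of 10, against 3.07%). From day 0 to day 4, Ezh1, Ezh2, Eed, Suz12, Jarid2 and Mtf2 fell (6 of 10, against 6.16%), and none of the 10 was called higher. Without WT replicate 2 of day 0 the value of Suz12 was -0.577, short of the fold threshold. The median log2 fold change from day 0 to day 4 in WT was -0.63 over the 10 genes and -0.012 over all genes, many of which have low counts that the VST scale compresses. On the VST scale Jarid2 had the largest log2 fold change (-1.41, SE 0.12, adjusted p = 3.55e-09), and its WT mean at day 4 was 33.2% of that at day 0. Limma-voom called 7 of the 10 lower in WT from day 0 to day 2 (against 10% of all genes) and 7 from day 0 to day 4 (against 17.6%), in both cases Ezh1 and Phf19 beside Ezh2, Eed, Suz12, Jarid2 and Mtf2. Its values for Phf19 were -1.65 (adjusted p = 3.34e-04) and -2.003 (adjusted p = 2.43e-06). From day 0 to day 4 it gave -1.81 for Ezh1 and -1.60 for Jarid2, so that the order by size differs from that on the VST scale. The median over all genes in this fit was 0.08 from day 0 to day 2 and -0.10 from day 0 to day 4. From day 2 to day 4 it called Jarid2 and Ezh1 lower (2 of 10, against 11.9%).

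In KO, Eed alone was called from day 0 to day 2, and fell (1 of 10, against 1.77% of all genes). From day 2 to day 4, Jarid2 fell and Rbbp7 rose (2 of 10, against 1.49% called in either direction). From day 0 to day 4, Ezh1, Eed, Jarid2 and Mtf2 fell and Rbbp7 rose (5 of 10, against 6.5%). Limma-voom added Ezh1 (-1.005) from day 2 to day 4 (3 of 10, against 10.3% in either direction) and Suz12 (-0.62) from day 0 to day 4 (6 of 10, against 27.5%), both lower. The median log2 fold change over the 10 genes was -0.44 from day 0 to day 4 in KO on the VST scale. Since the day 0 libraries of a genotype enter both its time comparisons, these are not independent of each other.

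The share of the day 0 level that was left at day 4 differed between the genotypes in some of the genes, without a test of these shares. For Eed it was 42.9% in WT and 41.5% in KO, and for Suz12 62.6% and 65.1%. Ezh2 kept 56.9% in WT and 76.4% in KO. Mtf2 kept 37.2% and 51.8%, Ezh1 28.3% and 41.9%, and Jarid2 33.2% and 39.8%. All 3 of these fell from day 0 to day 4 in both genotypes. Phf19 was at 24.5% of its day 0 level in WT and at 87.7% in KO. Rbbp7 went the other way and reached 129.6% in WT and 229% in KO.

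**Figure D3:**
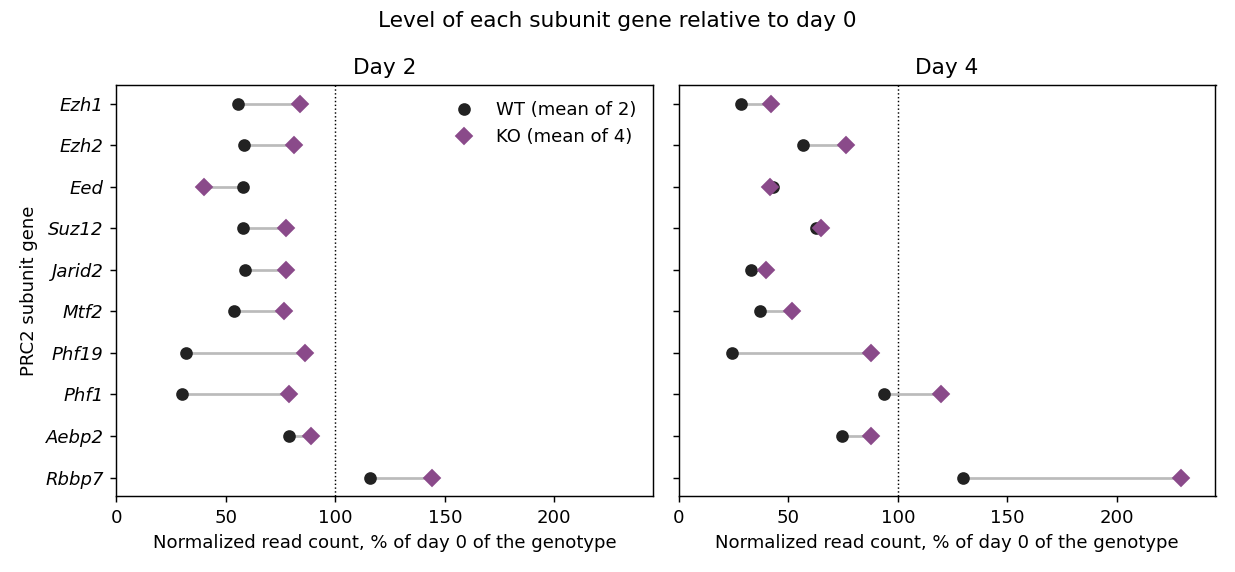
Mean normalized read count at day 2 (left) and day 4 (right) as a percent of the mean at day 0 of the same genotype, for each PRC2 subunit gene; circles are WT (mean of 2 libraries), diamonds KO (mean of 4), and the dotted line is 100%. At day 4 the genotypes are far apart for Phf19 (24.5% and 87.7%) and Rbbp7 (129.6% and 229%) and nearly coincide for Eed.

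Whether the KO effect itself differed between days was tested as an interaction in limma. For day 2 against day 0, no gene passed both thresholds (0 of 10, against 3.19% of all genes). At an adjusted p under 0.01 alone, the effect was higher at day 2 for Ezh1 by 0.37 (adjusted p = 0.00715), for Ezh2 by 0.39 (adjusted p = 6.03e-04), for Mtf2 by 0.44 (adjusted p = 0.00593) and for Phf19 by 0.35 (adjusted p = 0.00357). It was lower for Eed, at -0.42 (adjusted p = 5.84e-04). That makes 5 of 10 genes, against 12.3% of all genes by the same rule. For day 4 against day 0, Rbbp7 passed both thresholds (1 of 10, against 2.81% called higher), with a difference of 0.76 (adjusted p = 8.04e-06). Ezh2, at 0.35 (adjusted p = 0.00106), and Phf19, at 0.44 (adjusted p = 2.98e-04), passed on the adjusted p alone, which makes 3 of 10 higher against 7.96% of all genes. Limma-voom called Phf19 in both interactions, with values of 1.41 (1 of 10 genes called, against 4.09% of all genes by that method) and 1.81 (2 of 10, with Rbbp7, against 6.89%). The WT and KO libraries of day 0 are shared by both interactions.

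To compare levels between genes, normalized counts were divided by the exonic length of the gene in kb. This length counts the bases in exons of any GENCODE M21 transcript of the gene. It can exceed the length of the transcripts present, so the order of genes and the paralog shares depend on the annotation. In WT at day 0 the order was Rbbp7 (1948 normalized counts per kb), Suz12 (1097), Mtf2 (912), Jarid2 (867), Eed (722), Ezh2 (569), Aebp2 (229), Ezh1 (147), Phf19 (34.5) and Phf1 (14.9). No neighbours in this order overlapped in the 2 libraries. At day 4 in WT, Mtf2, Ezh2, Eed and Jarid2 lay within 288 to 339.6 per kb. Phf19 was then the lowest of the 10 at 8.46 per kb, below Phf1 at 13.9. In KO at day 4, Phf19 was at 45.5 per kb, next to Ezh1 at 48.4, and Rbbp7 at 3988.

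Within groups of paralogs, the genotypes did not overlap for the share of Phf19 at any day and for that of Rbbp7 at day 2 and 4. Ezh1 made up 20.5% ± 1.05 of the summed per-kb count of Ezh1 and Ezh2 in WT at day 0 and 18.2% ± 1.53 in KO (SD, n = 2 for WT and n = 4 for KO here and in what follows). These overlapped, as did those of day 2, 19.7% ± 0.887 and 18.7% ± 0.752. At day 4 it was 11.4% ± 1.08 and 10.9% ± 0.965, with overlapping libraries. Phf19 made up 3.59% ± 0.142 of the Polycomb-like sum in WT and 5.86% ± 0.737 in KO at day 0. At day 2 the shares were 2.18% ± 0.0207 and 6.51% ± 1.16. At day 4 they were 2.33% ± 0.354 and 9.41% ± 1.2, and no KO library overlapped WT at any day. Mtf2 nevertheless supplied most of that sum in each group, with 87.7% ± 1.74 in KO at day 4. Rbbp7 made up 63.7% ± 0.391 of the sum of Rbbp7 and Rbbp4 in WT and 64.99% ± 1.24 in KO at day 0, with overlapping libraries. At day 2 the shares were 61.5% ± 0.126 and 72.0% ± 1.93, without overlap. At day 4 the shares were 70.7% ± 0.795 and 81.4% ± 0.467, again without overlap. No test was run on these shares.

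**Figure D4:**
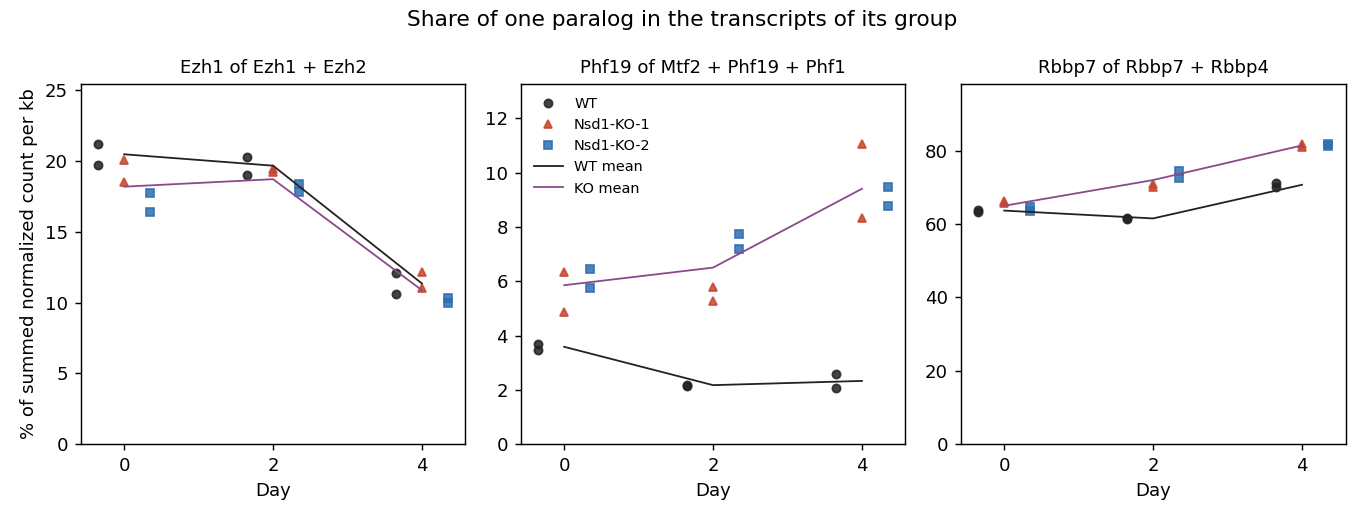
Share (%) of the summed normalized count per kb that Ezh1 holds of Ezh1 and Ezh2 (left), Phf19 of the 3 Polycomb-like genes (middle) and Rbbp7 of Rbbp7 and Rbbp4 (right), by day; points are single libraries and lines join the means of WT (2 libraries) and KO (4 libraries). The WT and KO points are apart at every day in the middle panel and mixed at day 4 in the left one.

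The clonal lines were also compared with each other, in a fit with line and day as 9 groups. No gene of the complex was called at day 0 (0 of 10, against 0.029% of all genes), day 2 (0 of 10, against 0.0435%) or day 4 (0 of 10, against 0.251%). Jarid2 was higher in KO-1 than in KO-2 at day 4 on the adjusted p alone (1 of 10, against 3.4% of all genes; log2 fold change 0.33, SE 0.07, adjusted p = 0.00663, limma). Rbbp7 at day 4 was lower in KO-1, at -0.21 (adjusted p = 0.0132) in limma, and Phf19 at day 2 lay between 182 and 191 in KO-1 and between 261 and 268 in KO-2 (adjusted p = 0.0746, limma). One KO library stood apart within its group, KO-1 replicate 1 at day 0, with 11205 for Jarid2, where the other 3 KO libraries had 9284 to 9570.3. It was also the highest of the 4 for Suz12, Ezh1, Ezh2 and Mtf2 and is the shallowest KO library, with 9644240 counts.

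Other genes of the complex were read from a list of Rbbp4, Epop, Lcor, Lcorl, Ezhip, Elob and Eloc. None was called between KO and WT in limma on the VST values at day 0, 2 or 4 (0 of 7 at each day, against 2.61%, 6.38% and 7.58% of all genes), and at an adjusted p under 0.01 alone 1, 5 and 1 of the 7 passed, against 19.6%, 34.1% and 28.2% of all genes. The median log2 fold change of the list was -0.07, -0.10 and -0.15 at day 0, 2 and 4. Rbbp4, the paralog of Rbbp7, was at 12526 and 12184 in WT, 8972 and 8475 in KO-1 and 8569 and 8033 in KO-2 at day 2. All KO libraries lay below WT (log2 fold change -0.51, SE 0.08, adjusted p = 2.10e-05, limma), opposite in direction to Rbbp7. Ezhip, an inhibitor of PRC2 known from the germ line, was at 22.1 and 29.0 in WT, 99.2 and 101 in KO-1 and 136 and 108 in KO-2 at day 4, and the KO mean was 4.34 times that of WT. Its VST difference of 0.43 (adjusted p = 3.70e-05) did not reach the fold threshold in limma, whereas limma-voom called it with a log2 fold change of 2.08 (1 of 7 called higher, against 10.9% of all genes by that method). At day 2 limma-voom called Lcor with 0.87 (1 of 7, against 10.3%), from reads of the whole gene, in which its isoforms cannot be told apart. Epop, which links the complex to elongin BC, had KO to WT ratios of 1.24, 1.49 and 0.88, with all KO libraries above WT at day 0 and 2 and below it at day 4.

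The enzymes that remove H3K27 methylation included a gene that was called at each day. Kdm6b, an H3K27 demethylase, was at 1909.7 and 2158 in WT, 1103 and 917 in KO-1 and 716 and 671 in KO-2 at day 0. The count at day 2 was 1660.5 and 1877 in WT, 933 and 986 in KO-1 and 771 and 758 in KO-2. The count at day 4 was 2874 and 2572 in WT, 1662 and 1584 in KO-1 and 1352 and 1487 in KO-2. All KO libraries lay below WT at each day. In limma the VST difference was -0.90 (adjusted p = 1.26e-06) at day 0, -0.72 (adjusted p = 8.77e-06) at day 2 and -0.66 (adjusted p = 2.67e-05) at day 4, and the means in KO were 0.42, 0.49 and 0.56 times those in WT. The KO effect on Kdm6b at day 4 was not separated from that at day 0 in limma, with a difference of 0.24 (adjusted p = 0.249). Kdm6a, its X-linked paralog, had ratios of 1.29, 1.29 and 1.19, and Uty, the Y-linked one, 1.39, 1.45 and 1.23. Exons of Kdm6b share bases with Kdm6bos on the opposite strand. Neither Kdm6a nor Uty was called, which leaves 1 of 3 demethylase genes called at each day, where 2.61%, 6.38% and 7.58% of all genes were called in either direction. At an adjusted p under 0.01 alone, both were higher in KO at day 2 (2 of 3, against 16.6% of all genes), opposite to Kdm6b. Neither passed this rule at day 0 or 4. The acetyltransferase genes Ep300 and Crebbp, whose products place acetylation on the same lysine, were not called at any day (0 of 2).

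**Figure D5:**
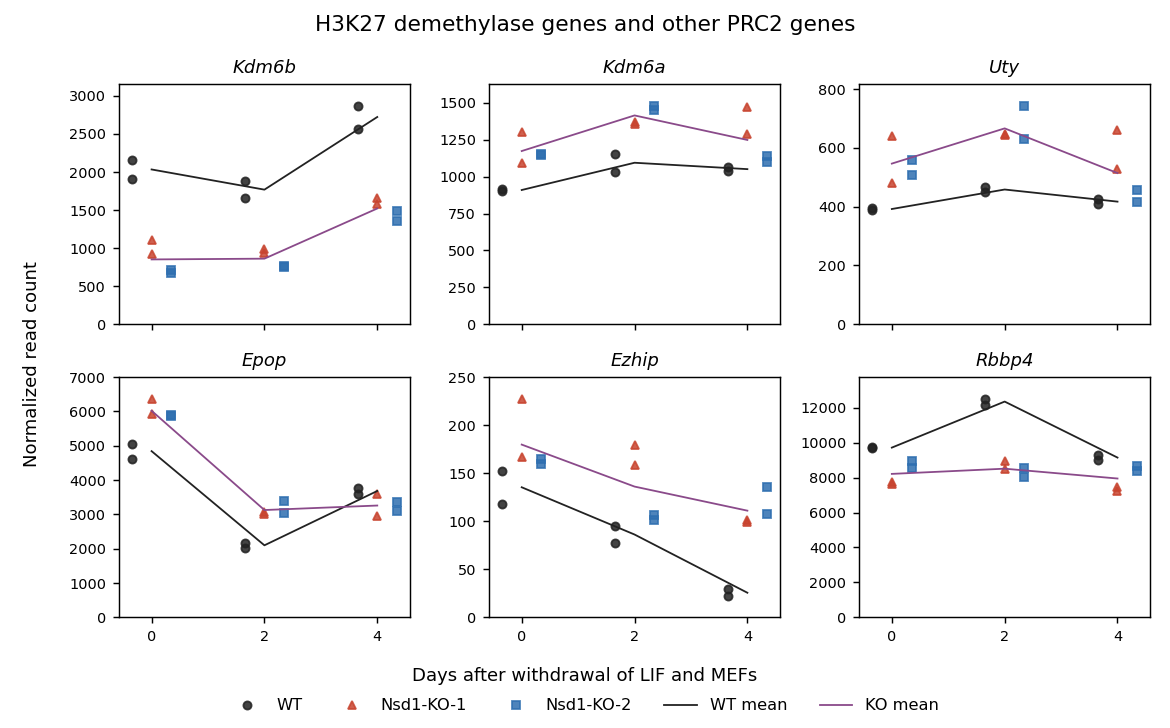
Normalized read count (linear axis from 0) of the H3K27 demethylase genes Kdm6b, Kdm6a and Uty and of Epop, Ezhip and Rbbp4 against days after withdrawal of LIF and MEFs; points are single libraries and lines join the means of WT (2 libraries) and KO (4 libraries). For Kdm6b every KO point is below the WT points of its day, and for Ezhip at day 4 the WT points are at 22.1 and 29.0.

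Lists of other genes were read from the same fit. Of 16 genes of S phase and mitosis, 0, 1 and 2 were called higher in KO than in WT at day 0, 2 and 4 in limma, against 1.73%, 4.01% and 3.67% of all genes, and none was called lower. At an adjusted p under 0.01 alone, 1, 2 and 7 of the 16 were higher, against 10.4%, 16.6% and 13.6% of all genes. By this rule 1, 1 and 0 were lower. E2f1, a factor of the E2F family, was higher in KO than in WT by 0.64 (adjusted p = 1.36e-08) at day 2 and 0.70 (adjusted p = 1.91e-09) at day 4 in limma. Mcm6, a subunit of the replicative helicase, was higher in KO than in WT by 0.61 (adjusted p = 3.57e-07, limma) at day 4. The summed normalized count of the list at day 4 was 67549 and 65402 in WT, 80581 and 79434 in KO-1 and 75215 and 74756 in KO-2, and all KO libraries lay above WT. The median log2 fold change of the list was -0.06, -0.02 and 0.12 at day 0, 2 and 4. The part of proliferation in the differences of PRC2 genes was not tested.

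Markers of cell types differed as well. Of the 8 ES cell markers, 0, 6 and 7 were called at day 0, 2 and 4 in limma, against 2.61%, 6.38% and 7.58% of all genes. At day 2, 5 of them were higher and Pou5f1 was lower in KO than in WT, and at day 4, 6 were higher and Tdgf1 was lower. Of those higher in KO, Sox2 was at 253 and 217 in WT, 4083 and 4208 in KO-1 and 4546 and 4337 in KO-2 at day 4. In the other direction, Tdgf1 was at 8091 and 8556 in WT, 3484 and 3714 in KO-1 and 3629 and 3741 in KO-2, and Pou5f1 had a KO to WT ratio of 0.65 at that day with all KO libraries below WT (VST difference -0.54, adjusted p = 2.68e-05, limma). Of 6 mesendoderm genes, 5 were called lower in KO than in WT at day 4, against 3.91% of all genes. The remaining gene, Foxa2, was at 12.1 and 18.9 in WT, 33.8 and 41.0 in KO-1 and 109 and 52.9 in KO-2 at that day, with all KO libraries above WT and a VST difference of 0.28 (adjusted p = 0.005) in limma, short of the fold threshold. The summed normalized count of all 6 at that day was 30015 and 29099.5 in WT, 881 and 917 in KO-1 and 449 and 459.7 in KO-2, and the most abundant was T, with 16441 and 16055 in WT. Markers of cell state thus differed between WT and KO at day 4, and the part of cell state in the PRC2 differences cannot be told apart from that of genotype in these samples.

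Of 8 fibroblast markers, which the MEF feeders would bring, 3 were called higher in KO than in WT at day 0 (Col1a1, Col1a2 and Col3a1), against 1.73% of all genes. The summed normalized count of all 8 at day 0 was 2674 and 2604 in WT, 4450.2 and 4350.1 in KO-1 and 5006 and 5122 in KO-2, with Col1a1 the most abundant at 1471 and 1493 in WT, 2509 and 2455 in KO-1 and 2994 and 2971 in KO-2. Pdgfra went the other way, at 57.9 and 48.9 in WT, 38.5 and 33.6 in KO-1 and 28.4 and 35.5 in KO-2, with all KO libraries below WT and no call, whereas for Thy1 (KO to WT ratio 1.03) and Postn (1.76) the genotypes overlapped. Lum was listed at 0 in all 6 libraries of day 0, and Dcn had at most 10.6. At day 2 and 4, after the feeders were removed, 1 gene (Thy1) and 2 genes (Col1a1 and Pdgfra) were called, lower in KO, against 2.37% and 3.91% of all genes, and the sum of all 8 at day 4 was 3184 and 3008 in WT, 607 and 665 in KO-1 and 1309 and 1216 in KO-2. The part of feeder RNA in the day 0 values was not tested.

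The 10 genes varied together in part. Over the 9 means of line and day, Pearson r of the VST values was 0.96 between Ezh1 and Mtf2, 0.96 between Jarid2 and Mtf2, 0.93 between Ezh1 and Jarid2 and 0.93 between Ezh2 and Suz12. Rbbp7 ran opposite to the rest of the core, with r of -0.80 to Ezh1, -0.72 to Eed, -0.59 to Suz12 and -0.54 to Ezh2. These are descriptions over points that share libraries, depth and days. Jarid2 had the widest range of group means, 1.69 on the VST scale, and Phf1 the narrowest, 0.29. Among 5167 other genes with high means and wide ranges, those most like Ezh1 in this measure were Ect2 (r = 0.99), Clmn (r = 0.98) and Pif1 (r = 0.98). Sox21 (r = 0.99), Pcsk6 (r = 0.98) and Jam2 (r = 0.98) were nearest to Ezh2, and Ppp6r3 (r = 0.99), Mdc1 (r = 0.99) and Ogdhl (r = 0.98) to Jarid2.

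The counting of reads sets a limit for some of these genes. In the GENCODE M21 annotation of GRCm38, exons of Ezh2, Eed, Suz12, Mtf2, Phf1 and Rbbp7 share bases with exons of a gene on the opposite strand, Txlng in the case of Rbbp7 and Tmed5 in that of Mtf2. The library kit named in the labels does not mark strand, so that reads from such a pair cannot be told apart. Exons of Ezh1, Jarid2, Phf19 and Aebp2 share none.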

How the data were processed

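RNA-seq of E14 mESCs, WT or Nsd1-KO in 2 clonal lines, was analysed from 1 table of 20703 genes and 18 libraries. Per the labels and the paper's methods, the authors trimmed reads (Trim Galore 0.6.7), aligned them to mm39 (STAR 2.7.11a), counted them on exons (featureCounts 2.0.6) and deposited log2 values after the variance stabilizing transformation of DESeq2 1.42.0. A count of 0 is listed as 8.36. Inverting the transformation gave whole counts, within 0.05, for 100% of values, and the size factors. Of counts from 1 to 20, 74.9% were even, for a reason not given in the sources used here.

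Fits used limma 3.58.1 in R 4.3.3, with a trended prior, 6 groups of genotype and day, and Benjamini-Hochberg adjustment over all genes. Limma was fitted because the deposited values are on a log2 scale, in place of the test of the study. The recovered counts entered limma-voom as an alternative. The clones were compared in a fit of 9 groups. Steps were tested on simulated data. Alternatives were fits on the libraries compared only, clones apart or alone, a replicate block, genes above percentile 25 of mean level, quantile normalization, median centring, no trend, limma-voom with and without a minimum mean count of 10, other thresholds, and each library left out in turn. Lengths came from GENCODE M21 on GRCm38 and promoters from RefSeq on GRCm38.p6. All 10 genes and every gene of the lists were named by rule, and the members and lists were chosen with earlier results of these data known. With 2 WT libraries a day, precision rests on the spread pooled over all groups. Figures were drawn with matplotlib 3.10.9 in Python 3.11.15.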

Additional observations from a re-analysis of the deposited data

Results flagged for a closer look

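Among the 4 KO libraries of day 0, KO-1 replicate 1 lay far above the others for Jarid2, with a gap to the next library of 0.839 of the range of the group, above the critical value of Dixon's test. Chance alone marks about 5% of such groups, and 30 were examined (10 genes at 3 days in KO). The KO effect on Rbbp7 was 0.76 higher at day 4 than at day 0 on the VST scale, with an adjusted p of 8.04e-06 for the interaction in limma. All 4 KO libraries were below both WT libraries at day 0 and above them at day 4.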

How the results depend on the processing

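Phf19 at day 4 was called higher in KO under each alternative run, and the direction of Rbbp7 at day 4 did not turn under any. The depth of Phf1, 7 to 91 counts, limits what can be said of it. Counts of called genes that moved by over 1.5 times are given by setting. KO vs WT at day 4 gave 1 gene with KO-1 alone, and KO vs WT at day 2 gave 2 with KO-2 alone (Jarid2 and Phf19), 2 after centring on the library median and 1 after quantile normalization, which also gave 3 for WT day 2 vs day 0 and 2 for WT day 4 vs day 2. Limma-voom on the recovered counts gave 3 for KO vs WT at day 2, 2 for WT day 4 vs day 2, and 1 and 2 for the KO effect at day 2 and at day 4 minus that at day 0. With a minimum mean count of 10 it gave the same counts of 3, 2, 1 and 2, and 1 (Phf19) for KO vs WT at day 0. Without a fold threshold, at an adjusted p under 0.05, limma gave 3, 6 and 7 genes for KO vs WT at day 0, 2 and 4, 9 for WT day 2 vs day 0, 5 for WT day 4 vs day 2, 7 for KO day 2 vs day 0, 5 for KO day 4 vs day 2, 8 for KO day 4 vs day 0, 6 and 5 for the KO effect at day 2 and day 4 minus day 0, and 4 for KO-1 vs KO-2 at day 4. At an adjusted p under 0.01 these were 2, 5 and 5 for KO vs WT, 9 and 5 for the WT steps, 6 and 4 for the KO steps, 5 and 3 for the KO effect, and 1 for the clones. Of all genes, 19.6%, 34.1% and 28.2% passed that rule for KO vs WT at day 0, 2 and 4. For the KO effect 12.3% passed at day 2 minus day 0, and 7.96% were higher at day 4 minus day 0. For the clones 3.4% were higher in KO-1. No share over all genes is given here at an adjusted p under 0.05 or for the steps. Those counts therefore do not set the complex apart from other genes. Leaving out 1 library gave 0 to 2 genes for KO vs WT at day 2 (2 without KO-1 replicate 1, 1 without KO-1 replicate 2 or WT replicate 2) and 1 to 2 at day 4 (1 without either KO-2 replicate). It gave 4 to 6 for WT day 2 vs day 0 (6, with Ezh1 at -0.58, without WT day 0 replicate 2), 5 to 6 for WT day 4 vs day 0 and 5 to 6 for KO day 4 vs day 0 (6, with Suz12 at -0.62, without KO-1 day 4 replicate 1). With KO-2 alone the last was also 6 (Suz12 at -0.64). The cause of these shifts was not tested, beyond the thresholds themselves.

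Values that changed sign were all near 0. With KO-1 alone these were Phf1 in KO vs WT at day 4 (-0.048), KO day 2 vs day 0 (0.016) and KO day 4 vs day 2 (-0.0078), and Aebp2 in KO day 4 vs day 2 (0.037). With KO-2 alone they were Phf19 in KO day 4 vs day 2 (-0.11) and Suz12 in the KO effect at day 4 minus day 0 (-0.046). Quantile normalization turned Aebp2 in KO vs WT at day 0 (-0.030) and Phf1 in WT day 4 vs day 0 (0.0061), and limma-voom turned Phf1 in KO vs WT at day 4 (-0.0065, or -0.0062 with the minimum mean count). With 1 library left out, the range was -0.068 to 0.016 for Aebp2 in KO day 4 vs day 2, -0.0051 to 0.023 for Aebp2 in KO vs WT at day 0, -0.039 to 0.042 for Phf1 in KO vs WT at day 4, -0.065 to 0.029 for Phf1 in WT day 4 vs day 0, -0.023 to 0.048 for Phf19 in KO day 4 vs day 2 and -0.024 to 0.080 for Suz12 in the KO effect at day 4 minus day 0.

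Whether replicate numbers pair the samples was not settled. Over 36 pairs of groups of line and day, differences between replicates correlated with a mean r of -0.048 (-0.61 to 0.64), over 0.1 in 13. A mean near 0 over so wide a range cannot exclude pairing among some of the groups. A replicate block left the counts of called PRC2 genes as they were, with 0, 0 and 2 for KO vs WT at day 0, 2 and 4, and moved the count over all genes at day 4 from 1569 to 1568.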
